A study of Mus musculus with 8 samples.

Results

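The 10 genes described here encode the core proteins that join and divide mitochondria: *Mfn1*, *Mfn2*, *Opa1*, *Oma1*, *Yme1l1*, *Dnm1l*, *Fis1*, *Mff*, *Mief1* and *Mief2*. They were taken by gene symbol as a set of known function, with earlier results of these data known, and all 10 were found among the 55414 genes of the expression table. RNA was sequenced in 8 libraries of B16F10 cells, a mouse melanoma line grown in culture, with 2 libraries in each of 4 groups and 24 h in the stated oxygen concentration. WT cells were unmodified B16F10 cells at 21% oxygen, and CypD KO cells were a *Ppif* knockout at 21% oxygen, made with Cas9 and a guide RNA and selected with puromycin. Control cells carried pcDNA with no insert, CypD OE cells pcDNA with *Ppif*, both selected with G418 and both kept at 1% oxygen. *Ppif* encodes cyclophilin D (CypD), a matrix prolyl isomerase that promotes opening of the mitochondrial permeability transition pore. Stable cells came from drug-resistant clones, and neither how many clones a library holds nor whether the 2 libraries of a group were separate cultures is given in the sources used here, so p-values measure the spread between these libraries, which may be technical.

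Mitochondria form a network that is remodelled by dynamin-related GTPases. Mitofusins, encoded by *Mfn1* and *Mfn2*, tether and fuse outer membranes, and OPA1 fuses inner membranes and holds cristae together. OPA1 is cut by the inner membrane proteases OMA1, which is activated by stress and loss of membrane potential, and YME1L, which acts constitutively, and the balance of long and short OPA1 sets whether inner membranes fuse. Division is carried out by the GTPase DRP1, encoded by *Dnm1l*, which is recruited from the cytosol by the outer membrane receptors MFF, FIS1, MID51 (*Mief1*) and MID49 (*Mief2*). Much of this control acts on the proteins, through cleavage, phosphorylation and ubiquitination, and is not seen in RNA.

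All values are TPM, the relative abundance of a gene's transcripts within a library on a scale with the same total for all libraries, as deposited by the authors. TPM is scaled by transcript length, so levels of different genes can be compared. Comparisons between groups were made on log2(TPM + 1) with limma, in 1 fit of all 8 libraries over the 13526 genes that reached 1 TPM in 2 or more libraries, with Benjamini-Hochberg adjustment of p over those genes. A gene is called higher or lower where the adjusted p was under 0.05. An exact permutation test between groups of 2 cannot go below a two-sided p of 0.333 and was not run. All 10 genes were above the filter.

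The libraries were first checked against their labels. *Ppif* was at 50.7 and 49.99 TPM in WT, 10.4 and 12.1 TPM in CypD KO, 44.6 and 42.3 TPM in Control and 50.3 and 49.3 TPM in CypD OE. It was called lower in CypD KO (log2 fold change -2.07, limma adjusted p = 3.81e-06), while the difference between CypD OE and Control was not past the threshold (0.19, limma adjusted p = 0.0794), so these are named below as CypD OE-labelled libraries. All 7 melanocyte lineage markers were expressed, and their sums differed between the groups. The sums were 15665 to 15755 TPM in WT, 12433 to 12587 TPM in CypD KO, 20446 to 20984 TPM in Control and 13586 to 13758 TPM in the CypD OE-labelled libraries. Single markers did not all follow the sums. *Tyr* was at 167 and 147 TPM in CypD KO against 37.4 and 41.25 TPM in WT, and *Pmel* at 1530 and 1478 TPM against 2375 and 2309 TPM. All 6 leukocyte markers were under 1 TPM. Of the 4 endothelial markers, *Cdh5* was at 0 throughout and only *Pecam1* reached 1 TPM, with 0.39 and 1.18 TPM in Control. The 6 fibroblast markers, of which *Dcn* was at 0 throughout, summed to 17.9 to 20.2 TPM in WT and 35.3 to 38.0 TPM in CypD KO. They summed to 21.2 to 22.8 TPM in Control and 10.4 to 12.7 TPM in the CypD OE-labelled libraries. Within this list the markers went in different directions: *Postn* was at 34.8 and 31.2 TPM in CypD KO and at 8.04 and 8.07 TPM in WT, while *Col1a2* was at 1.09 and 2.17 TPM against 9.03 and 6.87 TPM and *Pdgfrb* at 1.07 and 1.25 TPM against 2.5 and 2.5 TPM. The part of such cells or genes in the results below was not tested. The replicates of a group correlated at 0.983 to 0.985 across genes (genes are no independent replicates). Since RNA came from whole cultures, a change in some of the cells cannot be told apart from a smaller change in all of them.

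CypD KO cells had higher *Mfn2* and *Oma1* and lower *Opa1* than WT cells, and none of the 5 fission genes was called, except that *Dnm1l* and *Fis1*, with *Yme1l1*, were called lower after rescaling by median-of-ratios size factors. The CypD OE-labelled libraries had lower *Mfn2*, *Oma1*, *Yme1l1*, *Fis1*, *Mff* and *Mief1* and higher *Opa1* than Control. Of these calls, those of *Opa1*, *Oma1*, *Yme1l1*, *Mff* and *Mief1* did not hold in every setting run, as given below. Control cells at 1% oxygen had lower *Opa1* and higher *Fis1* and *Yme1l1* than WT cells at 21% oxygen. Oxygen and vector selection cannot be told apart in that comparison, and its *Fis1* and *Yme1l1* calls did not hold in every setting run. In CypD KO against WT, loss of *Ppif*, puromycin selection and clone cannot be told apart. CypD OE-labelled and Control cells were separate stable cells, so differences between clones cannot be told apart from the *Ppif* insert. The differences were modest, from 1.11-fold to 1.51-fold in either direction for the called genes.

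In CypD KO against WT, 2 of the 10 genes were called higher, where 30.1% of all genes tested were, and 1 lower, where 18.4% were. In the CypD OE-labelled libraries against Control, 1 was called higher and 6 lower, against 19% and 18.3% of all genes tested. In Control against WT, 2 were called higher and 1 lower, against 12.1% in each direction. The 2 higher became 1 in 5 of the 7 other settings of the fit and without WT replicate 1. With limma they became 0 in the fit of 4 libraries (3 at an unadjusted p under 0.05) and without Control replicate 1, Control replicate 2 or WT replicate 2 (1, 2 and 2 at an unadjusted p under 0.05). Over the 10 genes the median log2 fold change was -0.01 in CypD KO, where that of all genes tested was 0.09, -0.27 in the CypD OE-labelled libraries (all genes 0.002) and 0.04 in Control (all genes 0.01). Control libraries enter 2 of these comparisons and WT libraries enter 2, so the 3 sets of values are not independent. After that rescaling, which moved the median of all genes in CypD KO from 0.09 to -0.007, 2 of the 10 genes were higher and 4 lower in CypD KO, and calls over all genes in that comparison went from 4066 higher and 2486 lower to 3204 higher and 3481 lower. Leaving out a library lowered the count of 6 in the CypD OE-labelled libraries to 2 without CypD OE replicate 2 and to 3 without Control replicate 2.

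**Figure D1:**
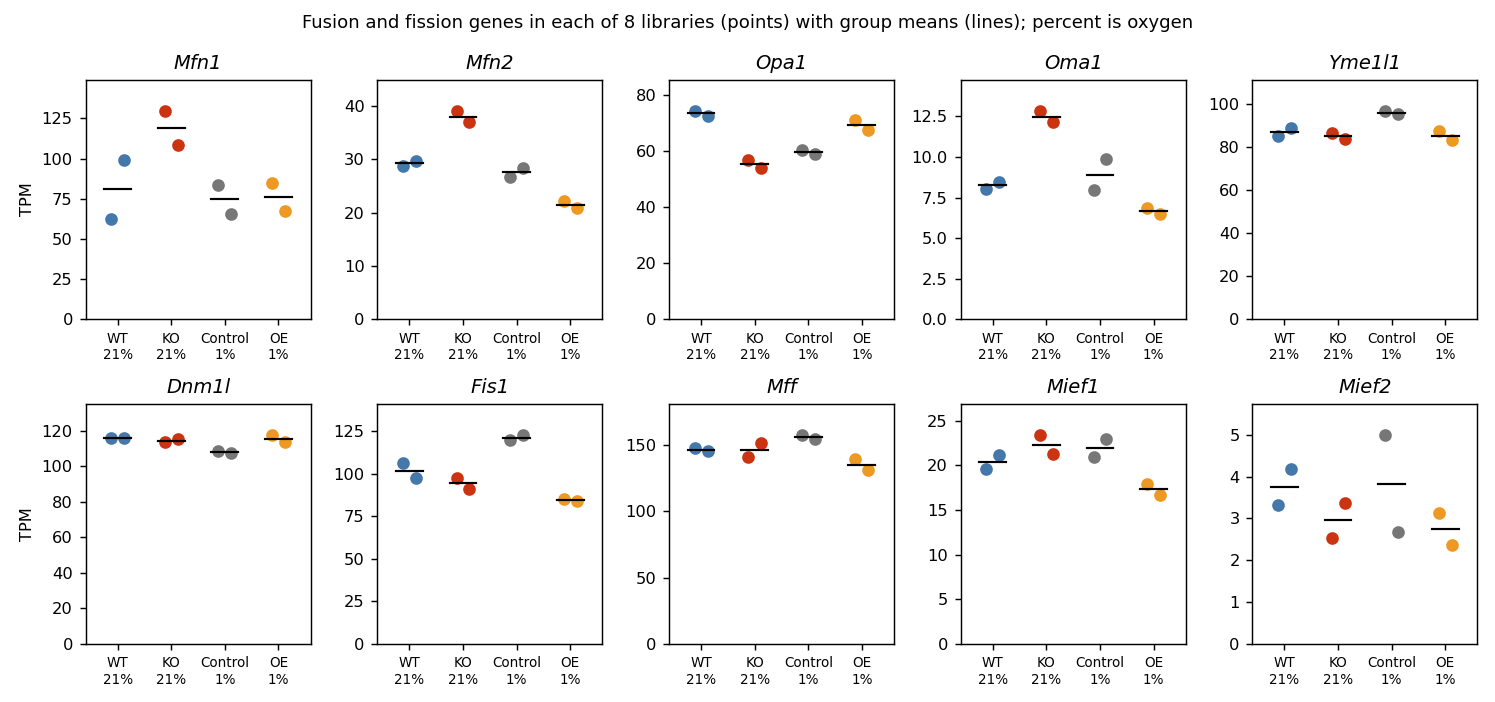
TPM (vertical axes, each from 0) of the 10 genes in the 4 groups, with a point for each library and a line for the group mean; the percentage under each group is the oxygen concentration. Opa1 was lowest in CypD KO and Control, Mfn2 and Oma1 were highest in CypD KO and lowest in the CypD OE-labelled libraries (OE), and Dnm1l stayed between 108 and 117 TPM.

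**Figure D2:**
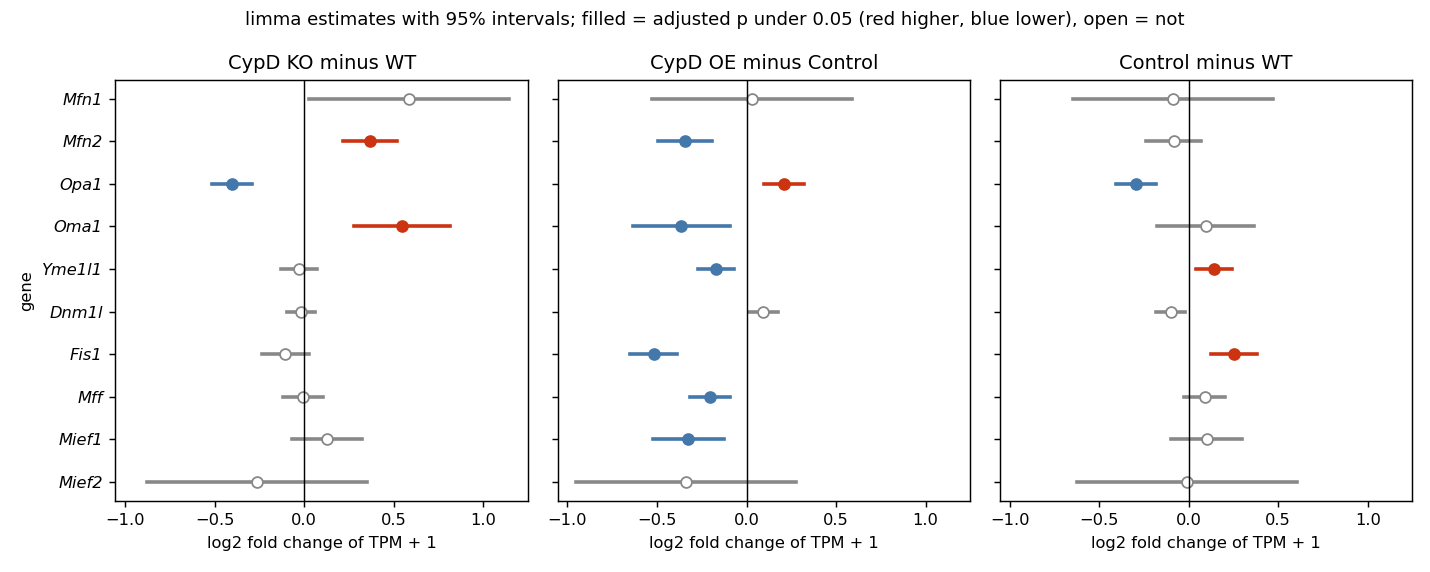
Log2 fold changes of TPM + 1 from limma (points) with 95% intervals (lines) for the 10 genes in the 3 comparisons; filled points had an adjusted p under 0.05, in red where higher and in blue where lower in the first-named group. Without rescaling, 2 genes were higher and 1 lower in CypD KO, against 1 higher and 6 lower in the CypD OE-labelled libraries, and the intervals of Mfn1 and Mief2 were the widest.

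Levels differed between the genes more than between the groups. The DRP1 receptor gene *Mff* had the highest group means, 135 to 156 TPM, followed by *Dnm1l* with 108 to 116 TPM, *Fis1* with 84.2 to 121 TPM, *Yme1l1* with 85.2 to 96.1 TPM, *Mfn1* with 74.6 to 119 TPM and *Opa1* with 55.2 to 73.4 TPM. *Mfn2* (21.5 to 38.0 TPM), *Mief1* (17.3 to 22.3 TPM), *Oma1* (6.67 to 12.5 TPM) and *Mief2* (2.74 to 3.84 TPM) were lower. This order did not hold in every group. *Mfn1* was second in CypD KO, where its mean of 119 TPM was above the 114 TPM of *Dnm1l* and its libraries overlapped those of *Dnm1l*, and it overlapped *Fis1*, *Yme1l1* and *Opa1* both in WT and in the CypD OE-labelled libraries. *Yme1l1* overlapped *Fis1* in the CypD OE-labelled libraries. *Fis1* was above *Dnm1l* in Control and below it in the other groups. The neighbours from *Opa1* down to *Mief2* did not overlap in any group.

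The start regions of 4 genes whose directions the comparisons turn on are shown first. *Mfn2* and *Oma1* went one way in CypD KO and the other way in the CypD OE-labelled libraries, *Opa1* went against them in both, and *Fis1* had the largest called fold change in the CypD OE-labelled libraries. Each sequence runs 5′ to 3′ from 250 bases before to 50 bases after the start of the canonical transcript in GENCODE M39 on GRCm39, and capitals mark matches to 4 short motifs. These were the cores of the hypoxia response element, ACGTG and GCGTG, the ETS factor core CCGGAAG and the NRF1 half-site TGCGCA, searched on both strands. None of the 10 windows held more than 1 match, and the *Oma1* window held 0, so it has no capitals. The windows are chr4:147989536-147989835 on the minus strand for *Mfn2*, chr4:103170629-103170928 on the plus strand for *Oma1*, chr16:29397865-29398164 on the plus strand for *Opa1* and chr5:136990681-136990980 on the plus strand for *Fis1*, whose canonical start lies inside the annotated gene.
Mfn2: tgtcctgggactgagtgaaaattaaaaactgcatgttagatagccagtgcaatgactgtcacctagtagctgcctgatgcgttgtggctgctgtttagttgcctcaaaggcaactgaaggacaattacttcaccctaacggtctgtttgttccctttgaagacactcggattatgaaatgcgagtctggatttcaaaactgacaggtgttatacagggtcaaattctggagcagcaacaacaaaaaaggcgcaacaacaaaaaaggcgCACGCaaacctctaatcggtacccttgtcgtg
Oma1: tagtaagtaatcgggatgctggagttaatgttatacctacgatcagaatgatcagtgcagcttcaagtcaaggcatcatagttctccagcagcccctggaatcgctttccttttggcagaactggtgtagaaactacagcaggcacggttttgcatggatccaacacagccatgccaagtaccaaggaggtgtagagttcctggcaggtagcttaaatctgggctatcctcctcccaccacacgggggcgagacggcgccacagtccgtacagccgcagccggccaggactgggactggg
Opa1: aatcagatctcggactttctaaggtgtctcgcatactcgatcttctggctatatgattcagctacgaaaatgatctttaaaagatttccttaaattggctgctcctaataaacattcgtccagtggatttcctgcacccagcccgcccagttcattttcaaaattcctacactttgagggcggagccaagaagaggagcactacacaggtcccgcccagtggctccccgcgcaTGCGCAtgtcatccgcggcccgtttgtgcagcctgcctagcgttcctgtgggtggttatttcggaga
Fis1: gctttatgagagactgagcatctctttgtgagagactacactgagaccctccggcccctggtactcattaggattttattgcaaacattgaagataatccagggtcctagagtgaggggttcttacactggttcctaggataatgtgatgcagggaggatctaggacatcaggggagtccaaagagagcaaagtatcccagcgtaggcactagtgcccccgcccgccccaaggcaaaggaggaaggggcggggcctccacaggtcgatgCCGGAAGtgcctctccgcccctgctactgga

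ACGTG was in none of the 10 windows, where 20.7% of 21770 windows of protein-coding genes held it. Positions below are those of the leftmost letter of a match in the window, with the start base counted as 1 and negative positions before it. GCGTG was in the windows of *Mfn2*, *Dnm1l* and *Mief2*, at 19, 19 and 12, where 37% of all windows held it. In *Mfn2* the match was on the opposite strand, so the window reads CACGC there. CCGGAAG (10.3% of all windows) was in the windows of *Mfn1*, *Yme1l1* and *Fis1*, at -12, -33 and 20. TGCGCA (9.39% of all windows) was in that of *Opa1* alone among the 10, at -17. These matches are descriptions of the letters near 1 annotated start of each gene, and no match in such a window says nothing of sites elsewhere.

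Of the outer membrane fusion genes, *Mfn2* (ENSMUSG00000029020; chromosome 4 of GRCm39, 147955508 to 147989585) separated the groups clearly. It was at 28.8 and 29.7 TPM in WT, 39.1 and 37.0 TPM in CypD KO, 26.7 and 28.5 TPM in Control and 22.2 and 20.8 TPM in the CypD OE-labelled libraries. Both CypD KO libraries were above all others and both CypD OE-labelled libraries below all others. The CypD KO mean was 29.9% above that of WT, a log2 fold change of 0.37 (standard error, SE, 0.06, limma adjusted p = 0.00321). The mean of the CypD OE-labelled libraries was 78.1% of Control, a log2 fold change of -0.34 (SE 0.06, limma adjusted p = 0.00603). Control and WT did not overlap but differed by only -0.08 (95% interval -0.24 to 0.07, limma adjusted p = 0.383).

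*Mfn1* (ENSMUSG00000027668; chromosome 3, 32583599 to 32645888) varied widely between replicates. It was at 62.4 and 99.2 TPM in WT, 130 and 109 TPM in CypD KO, 83.6 and 65.6 TPM in Control and 85.0 and 67.4 TPM in the CypD OE-labelled libraries. Both CypD KO libraries were above the 6 others, and the other 3 groups overlapped. The CypD KO mean was 1.47 times the WT mean, but the log2 fold change of 0.59 (95% interval 0.03 to 1.14) was not past the threshold after adjustment (limma adjusted p = 0.0783). It was 0.92 without WT replicate 2 (limma adjusted p = 0.0163) and 0.26 without WT replicate 1 (limma adjusted p = 0.359), so this value rests on which WT library is used. In the CypD OE-labelled libraries against Control it was 0.03 (95% interval -0.53 to 0.59, limma adjusted p = 0.937), and in Control against WT -0.09 (95% interval -0.64 to 0.47, limma adjusted p = 0.827).

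The within-group SD of *Mfn1* was 0.30 on the log2 scale, larger than that of 99.4% of 1453 genes of similar level (mean within 0.5 on the log2 scale), where the median over all genes tested was 0.10. *Mfn1* overlaps *Gnb4*, a G protein subunit gene on the opposite strand, over 13146 bases. *Gnb4* was at 16.4 and 17.9 TPM in WT, 48.5 and 49.4 TPM in CypD KO, 17.2 and 17.6 TPM in Control and 27.2 and 23.9 TPM in the CypD OE-labelled libraries. Whether strand was used in counting is not given in the sources used here, so reads of the overlapping genes may not have been told apart, and the part of *Gnb4* in the *Mfn1* values was not tested.

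*Opa1* (ENSMUSG00000038084; chromosome 16, 29398108 to 29473858), the inner membrane fusion gene, had close replicates and separated all groups. It was at 74.2 and 72.6 TPM in WT, 56.6 and 53.7 TPM in CypD KO, 60.4 and 58.7 TPM in Control and 70.9 and 67.4 TPM in the CypD OE-labelled libraries. No 2 groups overlapped, in the order WT, CypD OE, Control and CypD KO from highest to lowest. *Opa1* fell by 24.8% in CypD KO, with a log2 fold change of -0.41 (SE 0.05, limma adjusted p = 5.22e-04). It was 1.16 times the Control mean in the CypD OE-labelled libraries, a log2 fold change of 0.21 (SE 0.05, limma adjusted p = 0.0126), a call lost without CypD OE replicate 1 (limma adjusted p = 0.0721) and without Control replicate 2 (limma adjusted p = 0.0654). Control was 81.2% of WT, a log2 fold change of -0.30 (SE 0.05, limma adjusted p = 0.00568).

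The ratio of *Opa1* to *Mfn2* within a library put these changes side by side; the pair was chosen after the values were seen, so it has no test. It was 2.57 and 2.44 in WT, 1.45 and 1.45 in CypD KO, 2.27 and 2.06 in Control and 3.19 and 3.24 in the CypD OE-labelled libraries. CypD KO was lowest and the CypD OE-labelled libraries highest, with no overlap of groups. The ratio does not depend on the scaling of a library, since both genes are scaled alike.

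*Oma1* (ENSMUSG00000035069; chromosome 4, 103170737 to 103229065), which encodes the stress-activated OPA1 protease, was at 8.01 and 8.48 TPM in WT, 12.8 and 12.1 TPM in CypD KO, 7.94 and 9.88 TPM in Control and 6.84 and 6.49 TPM in the CypD OE-labelled libraries. CypD KO was above and CypD OE below all other libraries. The CypD KO mean was 1.51 times that of WT, a log2 fold change of 0.54 (SE 0.11, limma adjusted p = 0.00698), the largest called fold change of the 10 genes in that comparison. The CypD OE-labelled mean was 74.8% of Control, a log2 fold change of -0.36 (SE 0.11, limma adjusted p = 0.0429). This call was lost with the replicate number as a block (limma adjusted p = 0.0610), without a filter on low TPM (limma adjusted p = 0.0909) and in a fit of these 4 libraries alone (limma adjusted p = 0.117), and also without CypD OE replicate 1, CypD OE replicate 2 or Control replicate 2 (limma adjusted p = 0.103, 0.157 and 0.189). In Control against WT the log2 fold change was 0.09 (95% interval -0.18 to 0.36, limma adjusted p = 0.592).

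*Yme1l1* (ENSMUSG00000026775; chromosome 2, 23046034 to 23089281), the gene of the constitutive protease, moved less. It was at 85.0 and 88.8 TPM in WT, 86.4 and 84.0 TPM in CypD KO, 96.8 and 95.4 TPM in Control and 87.3 and 83.5 TPM in the CypD OE-labelled libraries. Control was above all others, and the other 3 groups overlapped. The log2 fold change was -0.03 in CypD KO (95% interval -0.13 to 0.07, limma adjusted p = 0.624), -0.17 in the CypD OE-labelled libraries (SE 0.04, limma adjusted p = 0.0197) and 0.14 in Control against WT (SE 0.04, limma adjusted p = 0.0496). The last was at the threshold and was lost in 6 of the 7 other settings of the fit and without each library in turn. After rescaling, *Yme1l1* was called lower in CypD KO (-0.14, limma adjusted p = 0.0222).

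*Yme1l1* exceeded *Oma1* in every library. The ratio of *Yme1l1* to *Oma1* was 10.6 and 10.5 in WT, 6.73 and 6.92 in CypD KO, 12.2 and 9.65 in Control and 12.8 and 12.9 in the CypD OE-labelled libraries. CypD KO was below all other groups and the CypD OE-labelled libraries above them, while Control spanned WT. This ratio has no test, and since *Yme1l1* moved less than *Oma1*, it largely repeats the *Oma1* values. *Mief1* likewise exceeded *Mief2* in every library. The ratio was 5.89 and 5.07 in WT, 9.20 and 6.32 in CypD KO, 4.20 and 8.56 in Control and 5.75 and 7.07 in the CypD OE-labelled libraries, with Control spanning WT.

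**Figure D3:**
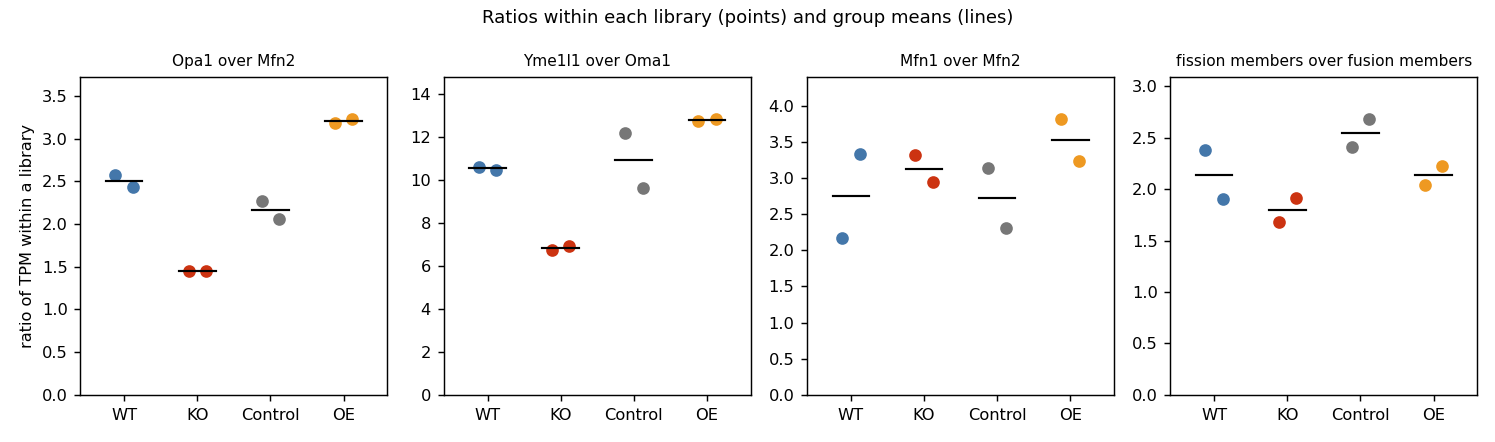
Ratios of TPM within each library (points; vertical axes from 0, no unit) and group means (lines) for Opa1 over Mfn2, Yme1l1 over Oma1, Mfn1 over Mfn2, and the summed fission genes over the summed fusion genes. CypD KO was lowest in the first 2 ratios, at 1.45 and 1.45 and at 6.73 and 6.92, and WT and CypD KO overlapped in the last 2 ratios.

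*Dnm1l* (ENSMUSG00000022789; chromosome 16, 16128677 to 16176904), the gene of the division GTPase DRP1, had the closest replicates of the 10. It was at 116 and 116 TPM in WT, 114 and 115 TPM in CypD KO, 109 and 108 TPM in Control and 117 and 113 TPM in the CypD OE-labelled libraries. Control was below all other libraries. The log2 fold change was -0.02 in CypD KO (95% interval -0.10 to 0.06, limma adjusted p = 0.665), 0.09 in the CypD OE-labelled libraries (95% interval 0.01 to 0.17, limma adjusted p = 0.0672) and -0.10 in Control against WT (95% interval -0.18 to -0.02, limma adjusted p = 0.0706). After rescaling it was called lower in CypD KO (-0.13, limma adjusted p = 0.0149) and in Control (-0.12, limma adjusted p = 0.0377). *Dnm1l* overlaps *Yars2*, on the opposite strand, which was at 22.7 to 32.4 TPM over the 8 libraries.

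Among the DRP1 receptors, *Fis1* (ENSMUSG00000019054; chromosome 5, 136982101 to 136995089) differed most between the groups at 1% oxygen. It was at 106 and 97.2 TPM in WT, 97.6 and 91.1 TPM in CypD KO, 120 and 122 TPM in Control and 84.9 and 83.6 TPM in the CypD OE-labelled libraries. Control was above and the CypD OE-labelled libraries below all others, and WT and CypD KO overlapped. *Fis1* fell by 30.5% in the CypD OE-labelled libraries, a log2 fold change of -0.52 (SE 0.05, limma adjusted p = 5.33e-04). Control was 1.19 times WT, a log2 fold change of 0.25 (SE 0.05, limma adjusted p = 0.0174), a call lost in a fit of those 4 libraries (limma adjusted p = 0.0578) and without Control replicate 1, Control replicate 2 or WT replicate 2. In CypD KO it was -0.11 (95% interval -0.24 to 0.02, limma adjusted p = 0.154), and -0.22 after rescaling (limma adjusted p = 0.0127).

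*Mff* (ENSMUSG00000026150; chromosome 1, 82702582 to 82730684), the main receptor gene by level, was at 148 and 145 TPM in WT, 141 and 151 TPM in CypD KO, 157 and 155 TPM in Control and 140 and 131 TPM in the CypD OE-labelled libraries. The CypD OE-labelled libraries were below and Control above all others. *Mff* fell by 13.4% from Control to these libraries, a log2 fold change of -0.21 (SE 0.05, limma adjusted p = 0.0138). In CypD KO the log2 fold change was -0.005 (95% interval -0.12 to 0.11, limma adjusted p = 0.943), and in Control against WT 0.09 (95% interval -0.02 to 0.20, limma adjusted p = 0.224).

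*Mief1* (ENSMUSG00000022412; chromosome 15, 80118149 to 80138322) was at 19.6 and 21.2 TPM in WT, 23.4 and 21.3 TPM in CypD KO, 20.9 and 22.9 TPM in Control and 17.9 and 16.7 TPM in the CypD OE-labelled libraries. Only the CypD OE-labelled libraries stood apart, below the 6 others. Against Control they were at 78.9%, a log2 fold change of -0.33 (SE 0.08, limma adjusted p = 0.0211). In CypD KO it was 0.13 (95% interval -0.07 to 0.32, limma adjusted p = 0.253) and in Control against WT 0.10 (95% interval -0.10 to 0.30, limma adjusted p = 0.422). The calls of *Mff*, *Mief1* and *Yme1l1* in the CypD OE-labelled libraries were each lost without CypD OE replicate 2 (limma adjusted p = 0.0763, 0.107 and 0.102). Those of *Mief1* and *Yme1l1* were lost without Control replicate 2 (limma adjusted p = 0.109 and 0.0605), and those of *Mff* and *Yme1l1* without Control replicate 1 (limma adjusted p = 0.0664 and 0.0854).

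*Mief2* (ENSMUSG00000018599; chromosome 11, 60618117 to 60623778) was at 3.32 and 4.18 TPM in WT, 2.54 and 3.37 TPM in CypD KO, 4.99 and 2.68 TPM in Control and 3.12 and 2.36 TPM in the CypD OE-labelled libraries. Control overlapped with each other group, and its own libraries were the farthest apart. From the steps between low TPM values, *Mief2* rested on approximately 69 to 123 fragments per library and *Oma1* on 146 to 276, if their canonical transcripts are taken. The log2 fold change of *Mief2* was -0.27 in CypD KO (95% interval -0.88 to 0.35), -0.34 in the CypD OE-labelled libraries (95% interval -0.95 to 0.28) and -0.01 in Control (95% interval -0.63 to 0.60), with limma adjusted p of 0.434, 0.355 and 0.986. The within-group SD of *Mief2* was 0.30 on the log2 scale, and the parts of depth and of the spread between replicates in these wide intervals were not tested. *Mief2* also overlaps *Flii* on the opposite strand, at 45.1 to 66.2 TPM.

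The summed TPM of the 5 fission genes was 393 and 384 in WT, 378 and 383 in CypD KO, 412 and 410 in Control and 363 and 347 in the CypD OE-labelled libraries. That of the fusion genes *Mfn1*, *Mfn2* and *Opa1* was 165 and 202 in WT, 225 and 199 in CypD KO, 171 and 153 in Control and 178 and 156 in the CypD OE-labelled libraries. The fission sum was thus highest in Control and lowest in the CypD OE-labelled libraries without overlap, while the fusion sums of CypD KO were above those of both groups at 1% oxygen and overlapped WT. The ratio of the sums was 2.14 ± 0.335 (SD, n = 2) in WT, 1.80 ± 0.168 in CypD KO, 2.55 ± 0.193 in Control and 2.13 ± 0.135 in the CypD OE-labelled libraries. It is a description of genes named with results of the series known and has no test.

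Patterns over the 8 libraries were compared for the genes with a called log2 fold change of at least 0.5, which were *Oma1* and *Fis1*. Among 4545 genes that varied at least as much, *Dennd10* (Pearson r = 0.988), *Rab3gap2* (0.985) and *Atraid* (0.984) were most like *Oma1*. *Dennd10* went from 16.1 and 17.4 TPM in WT to 28.1 and 24.1 TPM in CypD KO and to 13.4 and 13.2 TPM in the CypD OE-labelled libraries. Among 8192 genes, *Zc3h7a* (Pearson r = 0.988), *Creld2* (0.979) and *Tubd1* (0.979) were most like *Fis1*. *Creld2*, which encodes a protein of the endoplasmic reticulum, was at 121 and 131 TPM in Control and 66.0 and 65.1 TPM in the CypD OE-labelled libraries. Each is the highest of many correlations over 8 libraries that share 4 groups, and is given as a description.

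Genes around the core machinery were described in 5 lists, whose counts are read against the shares of all genes tested, 30.1% higher and 18.4% lower in CypD KO, 19% and 18.3% in the CypD OE-labelled libraries, and 12.1% in each direction in Control. Among 14 proteases, prohibitins and regulators of fusion, 2 were higher and 5 lower in CypD KO (median log2 fold change -0.12, all genes 0.09). *Chchd10*, a cristae-associated protein gene, rose by 0.60 and *Spg7*, a subunit gene of the matrix-facing AAA protease, by 0.48, while *Miga1*, a mitoguardin gene that promotes fusion, fell by 0.65 and *Phb2*, a prohibitin gene, by 0.43 on the log2 scale. Against Control, 5 were higher and 4 lower in the CypD OE-labelled libraries (median 0.02), with log2 fold changes of 0.56 for *Htra2*, 0.53 for *Miga1*, -0.71 for *Chchd10* and -0.56 for *Mtch2*. *Miga1* and *Chchd10* were thus called in opposite directions in these comparisons. *Miga1* was at 20.4 and 18.8 TPM in WT, 12.03 and 12.2 TPM in CypD KO, 19.8 and 22.3 TPM in Control and 31.1 and 30.2 TPM in the CypD OE-labelled libraries. Control had 0 higher by limma (0 at an unadjusted p under 0.05) and 5 lower than WT (median -0.15), led by *Parl*, a rhomboid protease gene (-0.64), and *Stoml2*, which encodes a cardiolipin-binding scaffold (-0.41).

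Among 20 fission accessory factors and regulators of DRP1, 7 were higher and 5 lower in CypD KO (median 0.06), near the 30.1% and 18.4% of all genes. *Inf2*, a formin gene whose product assembles actin at sites of division, was at 36.4 and 35.3 TPM in WT and 99.4 and 99.7 TPM in CypD KO. The difference was 1.45 on the log2 scale (SE 0.04, limma adjusted p = 1.78e-06), above that of each of the 10 core genes. *Cdk5*, a kinase gene, rose by 0.77, while *Mtfp1*, which encodes an inner membrane protein of division, fell by 0.86 and *Spire1* by 0.33 on the log2 scale. Against Control, 5 were higher and 2 lower in the CypD OE-labelled libraries (median 0.14). *Mtfp1* rose by 0.71 and *Inf2* by 0.58, while *Prkaca*, the catalytic protein kinase A gene, fell by 0.86 and *Sh3glb1* by 0.24 on the log2 scale. *Mtfp1* was at 16.5 and 17.8 TPM in WT, 8.66 and 9.27 TPM in CypD KO, 10.1 and 11.6 TPM in Control and 19.8 and 17.0 TPM in the CypD OE-labelled libraries, so that both CypD KO and Control were below the other groups. Control had 1 gene higher than WT, *Prkaca* (0.21), and 6 lower (median -0.18), led by *Mtfp1* (-0.61) and *Pgam5*, a mitochondrial phosphatase gene (-0.57). After rescaling, *Prkaca* was not called in that comparison (limma adjusted p = 0.0598).

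Among 10 genes of mitochondrial transport, 3 were higher and 1 lower in CypD KO (median 0.08), near the 30.1% and 18.4% of all genes. *Armcx3*, which encodes an outer membrane protein linked to transport, rose by 1.23 and *Armcx2* by 0.37, while *Rhot2*, the MIRO2 gene, fell by 0.31 on the log2 scale. The CypD OE-labelled libraries had 4 higher and 1 lower (median 0.16), with *Armcx3* at 0.48, *Trak2*, a motor adaptor gene, at 0.34 and *Armcx1* at -0.98. Control had 1 higher than WT, *Armcx1* (0.66), and 1 lower, *Trak2* (-0.26; median -0.07).

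All 12 genes of the list of MICOS and cristae were tested. MICOS is the complex that shapes cristae junctions. The list also holds *Samm50*, *Mtx1*, *Mtx2*, *Mtx3* and *Dnajc11*, which do not encode MICOS subunits. In CypD KO 4 were higher and 3 lower (median 0.11), near the 30.1% and 18.4% of all genes, with *Chchd6* at 0.44, *Micos10* at 0.24, *Dnajc11* at -0.37 and *Mtx1* at -0.26. Of the same genes, 4 were higher and 5 lower in the CypD OE-labelled libraries (median -0.04), with *Mtx3* at 0.76, *Immt*, the mitofilin gene, at 0.36, *Mtx2* at -0.45 and *Micos13* at -0.43. Control had 2 higher and 4 lower than WT (median -0.01), with *Chchd6* at 0.49, *Micos10* at 0.20, *Mtx1* at -0.43 and *Dnajc11* at -0.34. Changes in this list went in both directions in each comparison.

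The list of mitochondrial content, which holds import receptors, porins, chaperonins and regulators of biogenesis, is given for comparison with *Opa1*. Of its 19 genes, 1 was higher and 10 were lower in CypD KO (median -0.19), where 30.1% and 18.4% of all genes were. In the CypD OE-labelled libraries 6 were higher and 3 lower (median 0.05), where 19% and 18.3% of all genes were. In Control against WT 2 were higher and 10 lower (median -0.23), where 12.1% of all genes were in each direction. *Hspd1*, the mitochondrial chaperonin gene, was at 2447 and 2454 TPM in WT, 1262 and 1264 TPM in CypD KO and 1726 and 1716 TPM in Control. Its log2 fold changes were -0.96 in CypD KO and -0.51 in Control. *Hspe1*, its co-chaperonin gene, fell by 0.79 in CypD KO and *Tomm70a*, an import receptor gene, by 0.40 in Control on the log2 scale. *Esrra*, a nuclear receptor gene, rose by 0.39 in CypD KO, a call lost after rescaling (limma adjusted p = 0.0823). *Ppargc1a*, a coactivator gene of mitochondrial biogenesis, rose by 0.71 and *Vdac1*, a porin gene, by 0.14 in Control. In the CypD OE-labelled libraries, *Ppargc1a* fell by 2.26, from 52.4 and 49.0 TPM to 9.76 and 9.75 TPM, and *Vdac1* by 0.33, while *Timm44* rose by 0.44 and *Vdac3* by 0.39. The part of mitochondrial content in the *Opa1* values was not tested.

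After rescaling, the CypD KO counts became 2 higher and 9 lower for proteases, prohibitins and regulators of fusion, 5 and 5 for fission accessory factors, 2 and 3 for transport, 2 and 3 for MICOS and cristae, and 0 and 13 for mitochondrial content (limma, with 1 higher at an unadjusted p under 0.05). In Control against WT they became 0 and 6, 0 and 7, 1 and 3, 2 and 4, and 2 and 10 (with 0 and 1 higher at an unadjusted p under 0.05 in the first 2 lists). The CypD OE counts were 5 and 4, 5 and 2, 4 and 1, 4 and 5, and 6 and 3, as without rescaling.

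**Figure D4:**
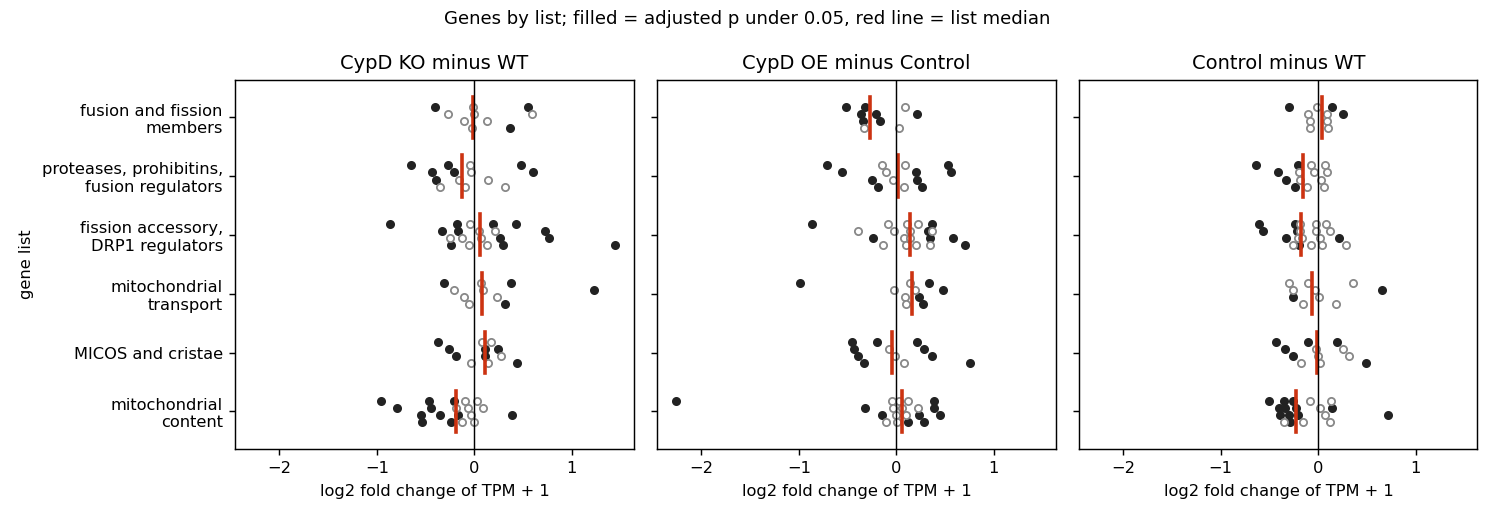
Log2 fold changes of TPM + 1 (horizontal axes) of the 10 core genes and of the 5 lists around them in the 3 comparisons; filled points had a limma adjusted p under 0.05, open points did not, and red lines are list medians. In CypD KO and in Control the mitochondrial content list lay mostly to the left, with medians of -0.19 and -0.23, and the core genes lay mostly to the left in the CypD OE-labelled libraries, with a median of -0.27.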

How the data were processed

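RNA from 8 libraries of cultured B16F10 cells was analysed, 2 in each of 4 groups set from the sample labels. The authors prepared ribosome-depleted total RNA libraries, sequenced paired ends of 150 bases, trimmed with Cutadapt 3.4, aligned to GRCm39 with STAR 2.7.8a and used RSEM 1.3.1 to estimate gene levels. Values were deposited by the authors as TPM, written to 2 decimals. The authors ran DESeq2 1.26.0 on read counts, which were not used here, and strand settings are not given in the sources used here. The labels and the methods name different RNA isolation kits. All columns were matched to samples by library name.

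The 13526 genes reaching 1 TPM in 2 or more libraries were tested as log2(TPM + 1), a scale that understates changes of low genes, with limma 3.58.1 in R 4.3.3 (a mean per group, eBayes with trend, two-sided, Benjamini-Hochberg over the genes tested, threshold 0.05). TPM holds no total count; depth was estimated from low values of genes with 1 annotated transcript of 600 to 3000 bases, of which 83.7% to 86.4% lay no more than 0.15 from whole fragments (30% if evenly spread). Coordinates and start windows are from GENCODE M39 (98.8% of gene identifiers matched). The genes named are the 10 members, *Ppif*, up to 2 genes per direction of each list and comparison with the largest called fold change, the 3 genes most correlated with a member called at 0.5 or more, and genes overlapping a member. The members and lists were chosen with earlier results of these data known. Alternatives were a pseudocount of 0.1, no filter, a 5 TPM filter, rescaling by median-of-ratios size factors, a fit of 4 libraries, a replicate block, no trend, and leaving out each replicate.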

Additional observations from a re-analysis of the deposited data

How the results depend on the processing

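With 2 libraries a group, precision rests on a spread shared over genes and groups. The calls of *Mfn2*, *Opa1* and *Oma1* in CypD KO, of *Mfn2* and *Fis1* in the CypD OE-labelled libraries and of *Opa1* in Control kept their direction and stayed under an adjusted p of 0.05 (limma) in every setting run; over all 10 genes and 3 comparisons, 281 values kept direction and call, 30 lost and 5 gained the call, and 11 changed sign. *Mief2* was below the filter of 5 TPM and has no value there. The cause of the changes below was not tested. Leaving out a library or fitting 4 libraries also uses fewer samples, and the part of this was not tested either. Replicate numbers from the library names were tried as a block, which ended 2 calls, those of *Oma1* and *Yme1l1* given below. Deviations of same-numbered libraries correlated at 0.108 for CypD KO and WT, -0.002 for CypD OE and Control and -0.02 for Control and WT. With 2 libraries a group, these values cannot decide whether same-numbered libraries were handled together, and the labels do not say.

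Rescaling gave 4 genes lower in CypD KO, adding *Yme1l1* (-0.14), *Dnm1l* (-0.13) and *Fis1* (-0.22), and 1 higher and 2 lower in Control, adding *Dnm1l* (-0.12). In the CypD OE-labelled libraries, *Oma1* kept its log2 fold change of -0.36 but lost its call without a filter, in the fit of 4 libraries and with the replicate block (limma adjusted p = 0.0909, 0.117 and 0.0610), and *Yme1l1* (-0.17) lost its call without trend (0.0556). In Control against WT, 1 gene was higher with a pseudocount of 0.1, without a filter, with the replicate block or without trend, and 0 in the fit of 4 libraries (limma, 3 at an unadjusted p under 0.05), where *Fis1* (0.25) lost its call and 998 genes were higher and 983 lower among all. *Yme1l1* lost its call there in these settings, with 0.15 for the pseudocount, 0.12 after rescaling and 0.14 in the others.

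Leaving out each replicate in turn gave, in CypD KO, 0.26 to 0.92 for *Mfn1*, -0.0586 to 0.0033 for *Yme1l1* and -0.0546 to 0.0447 for *Mff*. In the CypD OE-labelled libraries it gave 0 to 1 gene higher and 2 to 5 lower, with -0.14 to 0.20 for *Mfn1*, 0.18 to 0.25 for *Opa1*, -0.51 to -0.22 for *Oma1*, -0.20 to -0.14 for *Yme1l1*, -0.25 to -0.16 for *Mff*, -0.39 to -0.26 for *Mief1* and -0.69 to 0.0159 for *Mief2*. In Control against WT it gave 0 to 1 gene higher, 939 to 1073 higher and 983 to 1082 lower among all genes, -0.42 to 0.24 for *Mfn1*, -0.0479 to 0.24 for *Oma1*, 0.11 to 0.17 for *Yme1l1*, 0.19 to 0.32 for *Fis1* and -0.36 to 0.34 for *Mief2*.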
